A study of Homo sapiens with 27 samples.

Results

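Each of 10484 long-only peaks, of 233020 merged peaks in all, stood in the peak lists of 16 3′-seq libraries and was absent from the other 11. The 27 lists fell into 2 kinds by how many of their numbered peaks they still held: the 16 long lists held 73.1% to 79.4% of their peak numbers and the 11 short lists 30.6% to 42.3%. Peaks of all libraries that shared at least 1 base on the same strand were merged, and a merged peak was long-only when every long list and no short list held it. Peaks that at least 1 short list held are called short-listed peaks. The members were thus selected on which lists held them, so presence and absence there are not results, and absence from a short list does not mean a count of 0.

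3′-seq sequences the last stretch of polyadenylated RNA, so that each read marks a place where a poly(A) tail, or another run of A, met the oligo-dT primer. A pre-mRNA is cleaved by the cleavage and polyadenylation machinery, usually downstream of an AAUAAA-like signal, and 1 gene can use several sites, in the last exon or in introns. Oligo-dT can also prime at A-rich stretches inside RNA. Cisplatin forms platinum adducts on DNA that hinder RNA polymerase II, and the study addresses short transcripts that end early in long genes after cisplatin.

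The study used 3 human non-small cell lung cancer lines: H358, A549 and A549R. Of the 9 groups of 3 libraries, 6 groups gave long lists and enter the comparisons. These were H358 total cells with the vehicle DMSO or 100 µM cisplatin (3 libraries each), A549R cytosol with DMSO or 100 µM cisplatin (3 each), and heavy polysomes of A549 with DMSO or 100 µM cisplatin (2 each, numbered 1 and 2). The short lists were those of H358 with 100 µM oxaliplatin, A549 cytosol with either treatment, and the polysome libraries numbered 3, and no comparison uses their counts. They serve to choose the members and to define the short-listed peaks that members are set beside, and 1 alternative scaling rests on those peaks. Neither the origin of A549R nor the length of treatment is given in the sources used here. The labels number the replicates but do not say that they came from separate cultures, so p-values measure the spread between these libraries, which may be technical.

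Total listed counts of the 16 long-list libraries ran from 3024814 (A549R DMSO replicate 3) to 11997535 (polysome DMSO replicate 2). The median count of a long-only peak ran from 16 to 80 per library, and the lowest count in every list was 5. Of the 10484 members, 5478 had more than 10 counts in each of the 16 libraries and 5006 had 10 or fewer in at least 1 of them. Just outside the rule lay 3714 peaks of 15 long lists and no short list, with a median mean count of 18.6 against 43.7 in the members. Of those 3714, 1250 were missing from H358 cisplatin replicate 3 and 1025 from H358 DMSO replicate 3. A further 203 peaks stood in all long lists and 1 short list, with a median mean count of 64.2 and a median width of 211 bases.

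The long-only peaks were narrow beside the peaks of all 27 lists. Their median merged width was 74 bases, with 25% at 63 or less and 25% at 113 or more. The 10283 peaks of all 27 lists had a median of 430 bases. Of the members, 7189 (68.6%) were under 100 bases and 248 (2.37%) over 250 bases, against 2.46% and 80.2% of the peaks of all 27 lists. They were not narrow beside the other 140736 peaks of no short list, whose median was 55 bases. Reads were 50 bases long. Within single libraries the median width of a long-only peak ran from 54 to 59 bases, and that of peaks in all long lists and at least 1 short list from 132 to 268 bases. All peaks of a long list had a median of 57 to 105 bases. The median of all merged peaks was 74 bases, as in the members.

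The downstream edges of the long-only peaks were close to fixed. Across the 16 libraries, the most upstream and the most downstream position of a member's downstream edge lay a median of 6 bases apart (25% to 75%, 4 to 13 bases), and 68.4% lay within 10 bases. The upstream edge ranged over a median of 16 bases (8 to 54), with 37.1% within 10 bases. In the peaks of all 27 lists the same ranges were 26 bases downstream and 204 bases upstream. Those peaks are wider, which leaves room for larger ranges. The ranges were not measured in the other narrow peaks of no short list. A single peak in every long-list library made up 10443 of the 10484 members, against 5800 of the 10283 peaks of all 27 lists. The peaks were thus narrow, while whether they are polyadenylation sites was not tested, since bases at the peaks were not analysed here.

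The narrowest member was chrX:131427285-131427306 on the minus strand, 22 bases long. Its level in H358 was 3.35, 1.72 and 3.07 CPM (counts scaled to library size, here by the trimmed mean of M-values) with DMSO and 1.64, 2.44 and 1.46 with cisplatin. These groups overlapped. The widest member was chr18:6462069-6463031 on the minus strand, 963 bases long. It had 607.2, 773 and 703 CPM with DMSO and 435, 444 and 550 with cisplatin in H358, and the groups did not overlap. This peak fell with a log2 fold change of -0.54 ± 0.22 (SE, edgeR's quasi-likelihood test, Benjamini-Hochberg adjusted p = 0.0432).

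**Figure D1:**
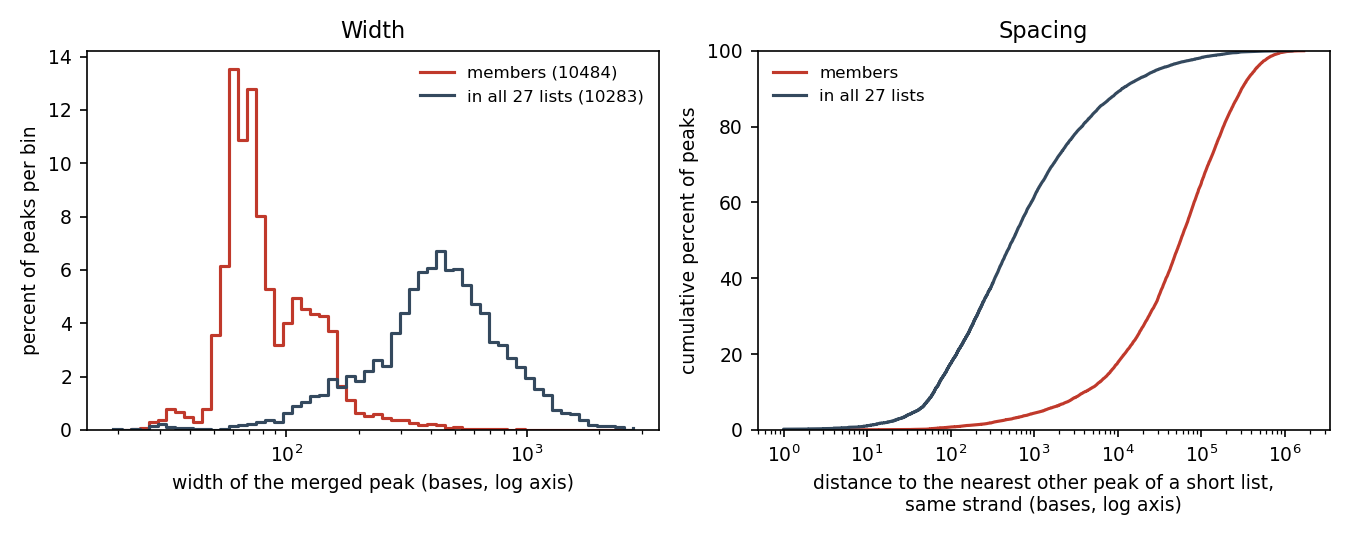
Left, percent of peaks per bin of merged width in bases (log axis, larger widths placed in the last bin), and right, cumulative percent of peaks by distance in bases (log axis) to the nearest other short-listed peak on the same strand. Long-only peaks (red, members) have medians of 74 and 56778 bases, and peaks of all 27 lists (blue) 430 and 553.5 bases.

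More long-only peaks lay on the plus strand than on the minus strand. There were 6827 on plus and 3657 on minus, 65.1% plus, against 50.8% in the peaks of all 27 lists and 51% in all 81800 peaks of at least 1 short list. Among peaks of no short list, the plus share was 51.7% for those in 1 long list, 54.6% in 8, 57.6% in 14, 61.0% in 15 and 65.1% in all 16. Each nuclear chromosome had more members on plus than on minus, from 57.0% on chromosome 21 to 69.2% on chromosome 9. Only 244 members (2.33%) overlapped a merged peak on the other strand, 158 of those on plus and 86 of those on minus.

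The long-only peaks stood far from short-listed peaks, which by the rule they cannot overlap. The median distance from a member to the nearest short-listed peak on its strand was 56778 bases (25% to 75%, 17524 to 149982), and 5582 members (53.2%) had none within 50000 bases. For the peaks of all 27 lists the median distance to another short-listed peak was 553.5 bases, and 3.39% had none within 50000 bases. Only 292 members (2.79%) had a short-listed peak within 500 bases, against 47.9% of the peaks of all 27 lists. The nearest short-listed peak lay a median of 112906 bases away on the upstream side and 117137 bases on the downstream side. Members were also far from each other, with a median of 163832 bases to the nearest other member and 40 of them within 500 bases of one. The nearest merged peak of any kind lay a median of 9022.5 bases away. These distances were not measured for the other peaks of no short list, so whether they are particular to the members is not shown.

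Members were spread over most of the genome. Of 3108 windows of 1 Mb, 2754 (88.6%) held at least 1 member, with a mean of 3.37 and at most 15 per window, while short-listed peaks had a mean of 26.3 and at most 195. The 20 windows that held members and no short-listed peak had 64 of them. The window with the most members, from 6 to 7 Mb on chromosome 16, had 15 members, 10 of them on plus, and 3 short-listed peaks. The next windows were 93 to 94 Mb on chromosome 12 and 39 to 40 Mb on chromosome 4 with 13 members each, and 21 to 22 Mb on chromosome 10 and 50 to 51 Mb on chromosome 14 with 12 each. Those 4 windows held 48, 100, 29 and 94 short-listed peaks.

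The density of members varied less between chromosomes than that of short-listed peaks. Densities, like the windows above, run to the highest listed position of a chromosome, so stretches without any peak are counted in. Members ran from 2.22 per Mb on chromosome 21 to 5.14 on chromosome 19, a ratio of 2.31, with 1.53 on chromosome Y left out of the ratio. Short-listed peaks ran from 14.4 per Mb on chromosome 13 to 66.9 on chromosome 19, a ratio of 4.65, with 3.61 on chromosome Y. No member lay on the mitochondrial genome. For each 100 short-listed peaks there were 7.69 members on chromosome 19, the lowest, 18.7 on chromosome 18 and 42.5 on chromosome Y, the highest.

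Levels of the long-only peaks spanned less between chromosomes than those of the other peaks listed in all 16 libraries. Levels compared between samples are CPM scaled over all 16 long-list libraries together. In H358 DMSO the median level of a chromosome's members ran from 2.01 (chromosome 22) to 2.26 (chromosome 14) on the log2 CPM scale, a span of 0.25. Peaks in all long lists and at least 1 short list, called shared peaks below, ran from 3.61 (chromosome 18) to 5.01 (chromosome 19), a span of 1.39. In A549R DMSO the spans were 0.54 for members and 0.93 for shared peaks, and in polysome DMSO 0.54 and 1.37, so the contrast was smaller there than in H358. The difference in level between A549R and H358 with DMSO ran over chromosomes from 0.64 to 0.88 log2 for members and from -1.05 to 0.12 for shared peaks.

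**Figure D2:**
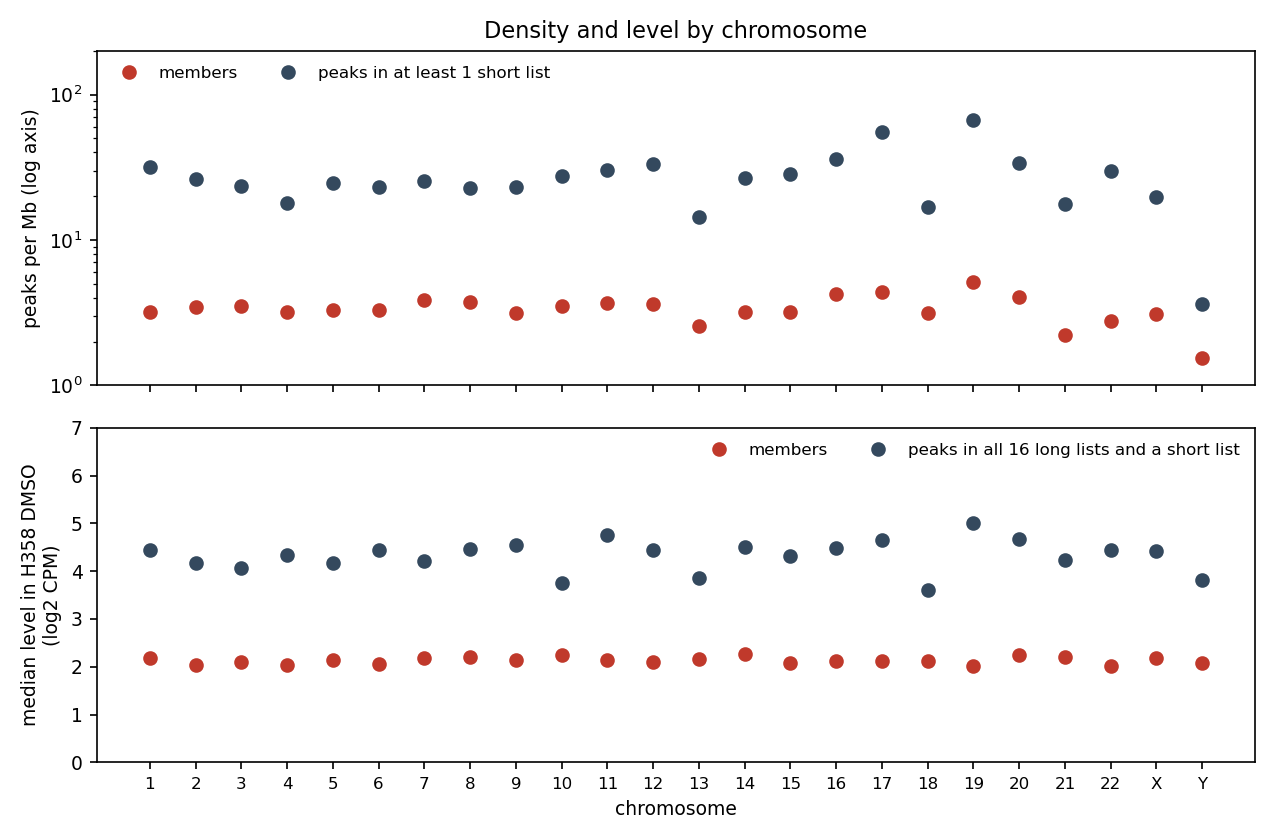
Above, peaks per Mb of each chromosome (log axis) for long-only peaks (red, members) and short-listed peaks (blue), and below, the median level in H358 DMSO in log2 CPM for long-only peaks (red) and for peaks of all 16 long lists and at least 1 short list (blue). Apart from chromosome Y, members run from 2.22 to 5.14 per Mb, and over all 24 chromosomes their median levels lie between 2.01 and 2.26.

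The level of a typical member was lower in H358 than in the other samples. The median level was 4.37 CPM in H358 DMSO, 7.57 in A549R DMSO and 8.11 in polysome DMSO, and that of shared peaks 21.2, 12.9 and 12.8 CPM. Line and RNA fraction differ together between these samples and cannot be told apart. Levels of members with DMSO went together across samples, with Pearson's r = 0.89 and Spearman's rho = 0.85 between H358 and A549R over the 10484 peaks. The values were 0.73 and 0.68 between H358 and polysomes, and 0.84 and 0.80 between A549R and polysomes. These are descriptions over peaks, which share libraries and peak width and are not independent. For shared peaks, r was 0.82, 0.66 and 0.82 in the same order.

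The members with the highest level stood far above the typical member. The highest was chrX:69342133-69342256 on the plus strand, with a mean over the 6 groups of 6459 CPM on the scale of all 16 libraries together. Scaled within each comparison, as all library values here are, it measured 552, 419 and 545 CPM in H358 DMSO and 738, 1567 and 933 in H358 cisplatin, with no overlap. In A549R it measured 1574, 1730 and 1974 with DMSO and 1413, 1495 and 1596 with cisplatin, which overlap. In polysomes it measured 17136 and 13946 with DMSO and 18404 and 15079 with cisplatin, the highest of its levels. The peak rose in H358 with a log2 fold change of 1.09 ± 0.23 (SE, edgeR's quasi-likelihood test, adjusted p = 5.43e-05) and was at -0.23 ± 0.16 in A549R (adjusted p = 0.619).

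The other members of highest level were chr19:16869793-16869868 on plus (mean 4663 CPM on the scale of all 16 libraries), chr12:98851100-98851250 on plus (4452), chr11:2151768-2151856 on plus (3378) and chr5:157448450-157448526 on minus (2942). In H358, the chromosome 19 peak had 1153, 1508 and 1888 CPM with DMSO and 2494, 5329 and 2407 with cisplatin. The chromosome 12 peak had 1706, 1598 and 2175 with DMSO and 2875, 3688 and 2886 with cisplatin. All 4 rose in H358 without overlap of the groups, by log2 fold changes of 1.17, 0.79, 0.62 and 1.08 (edgeR's quasi-likelihood test, adjusted p = 0.00018, 0.00136, 0.0103 and 0.00156). In A549R the same 4 had log2 fold changes of -0.18, -0.05, 0.25 and 0.00, and none passed the test (adjusted p = 0.744, 0.942, 0.693 and 0.997).

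The first comparison asked how cisplatin changed the long-only peaks in H358. They took a larger share of the listed counts after cisplatin. The share was 13.0%, 12.7% and 14.8% with DMSO and 19.1%, 24.5% and 20.8% with cisplatin. The 2 groups did not overlap. Mean shares were 13.5% ± 1.13 and 21.4% ± 2.76 (SD, n = 3 each), a difference of 7.91 percentage points or 1.59-fold. The two-sided exact permutation test gave p = 0.1, the smallest that 3 against 3 libraries allow, and 0.3 adjusted over 3 comparisons. Counts are relative within these bulk libraries, so fewer cells of a kind and less RNA per cell cannot be told apart, nor can a higher share of some peaks and a lower share of others. Mitochondrial peaks took 7.29% to 7.68% with DMSO and 14.4% to 16.2% with cisplatin. Without them the members' share was 13.7% to 16.0% with DMSO and 22.7% to 29.0% with cisplatin, and these groups did not overlap either. Peaks of at least 1 short list took 81.4% to 82.1% with DMSO and 66.7% to 73.1% with cisplatin.

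Peak by peak, most members were higher after cisplatin in H358. Of the 10484 members, 3553 rose and 191 fell (edgeR's quasi-likelihood test, adjusted p under 0.05 over all 27634 peaks listed in the 6 libraries). That is 33.9% risen, against 18.8% of all peaks in the fit and 9.59% of the peaks in it that are no members, and 1.82% fallen, against 18.6% and 28.8%. The share changed in either direction was 35.7% in members, near the 37.4% of all peaks and the 38.4% of the others. Every member had to be listed, with at least 5 counts, in each cisplatin library. In H358 cisplatin replicates 1, 2 and 3, 1220, 1657 and 3256 members had 10 or fewer counts. A low peak that fell far could not be a member, so the rule itself limits the fallen share of members. The median log2 fold change of members was 0.69 (10% to 90%, -0.13 to 1.34), and 86.4% of members were above 0, against a median of 0.08 for all peaks. Of the 1822 other peaks of no short list in this fit, 718 rose and 30 fell, with a median of 0.81. Of the 15328 peaks of at least 1 short list, 927 rose and 4910 fell, with a median of -0.48. The members were thus near the other peaks of no short list in this readout, and the difference between those sets was not tested.

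**Figure D3:**
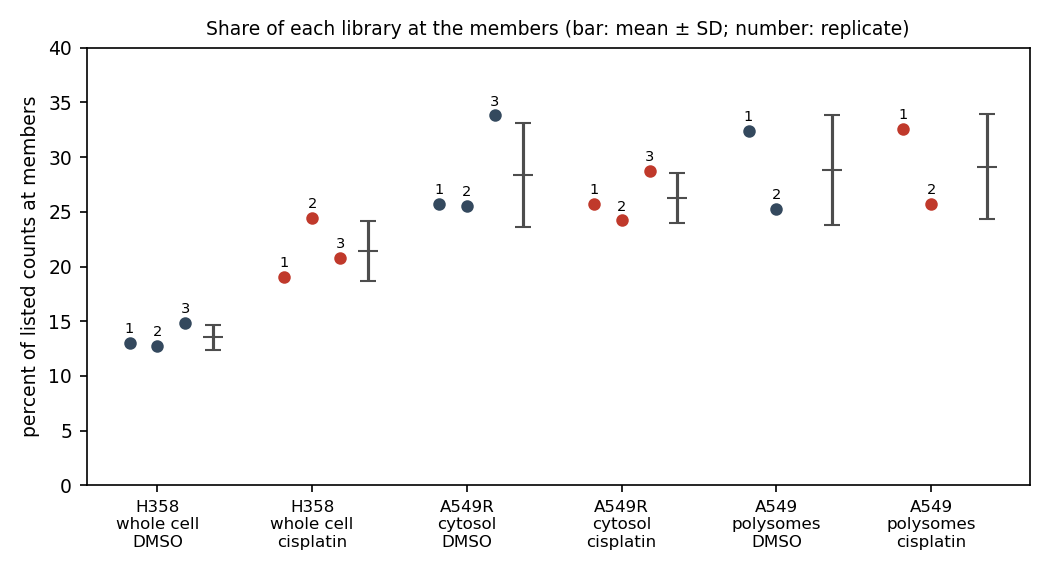
Percent of listed counts at long-only peaks in each library of the 6 groups, with the replicate number beside each point and the group mean with SD as a bar. The H358 cisplatin libraries (19.1% to 24.5%) lie above the H358 DMSO libraries (12.7% to 14.8%), while the groups of A549R and of polysomes overlap.

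Scaling moved the size of this change but not its direction. Scaling on peaks of at least 1 short list shifted the median of all peaks from 0.08 to 0.58. It gave 6791 risen and 64 fallen members (64.8% and 0.61%) with a median of 1.20, while 36.5% of all peaks rose and 7.91% fell. The peaks that are no members then had 3302 risen and 2121 fallen, the reverse of their order under the main scaling, with a median of 0.11. Among the 2694 members with a mean count of at least 50, a limit chosen after seeing the data, 1347 rose and 141 fell, with a median of 0.75. The number of changed members fell from 3744 to 2310 without DMSO replicate 1, to 2073 without DMSO replicate 2 and to 1599 without cisplatin replicate 2.

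In H358 the median change was above 0 in members up to 250 bases wide and below 0 in wider ones. Members over 75 to 100 bases had a median log2 fold change of 0.76 and those over 100 to 150 bases 0.78. Those of 50 bases or less had a median of 0.44 (495 members), those over 50 to 75 bases 0.67 and those over 150 to 250 bases 0.66. The 248 members over 250 bases had a median of -0.29, with 45 risen and 56 fallen. The widest members thus stood apart from the rest in this description, and they also had the highest median level, 4.71 on the log2 CPM scale. The difference between width classes was not tested.

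The median change was also lower in members near a short-listed peak. The 80 members with such a peak within 100 bases had a median of -0.41, with 8 risen and 17 fallen. The 212 members with one at over 100 to 500 bases had a median of 0.07, and the 395 at over 500 to 2000 bases had 0.55. The 5582 members with none within 50000 bases had a median of 0.70, with 1923 risen and 46 fallen. Members near short-listed peaks were also wider, with median widths of 219.5, 148.5 and 116 bases in the first 3 classes. Which of width and distance goes with the change was not tested.

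**Figure D4:**
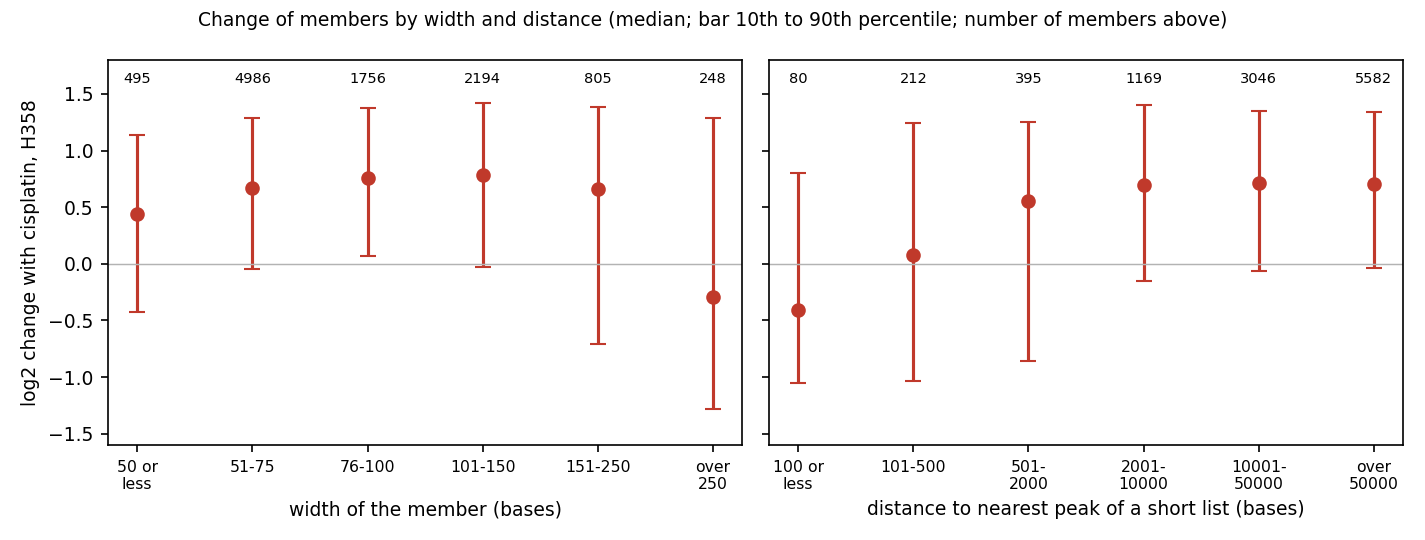
Log2 fold change with cisplatin in H358 of the long-only peaks by merged width and by distance to the nearest short-listed peak on the same strand, both in bases. Points are medians, bars run from the 10% to the 90% quantile and the number of members stands above; medians lie between 0.44 and 0.78 up to 250 bases of width and at -0.29 above, and stand at -0.41 within 100 bases of a short-listed peak and at 0.70 beyond 50000 bases.

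The remaining features of a member went with smaller differences in H358. Members on plus had a median log2 fold change of 0.72 (2449 risen, 99 fallen) and those on minus 0.65 (1104 risen, 92 fallen). Chromosome medians ran from 0.61 (chromosome 18) to 0.81 (chromosome 21). In 5 equal classes of members by level, from lowest to highest, the median was 0.63, 0.64, 0.70, 0.73 and 0.76. The share that rose was 23% in the lowest and 53.8% in the highest class, while the share that fell was 0% and 5.44%. A member had to be listed, with at least 5 counts, in every long list, and the lowest class lay near that limit. A peak there that fell far could not be a member, so the fallen share of that class is not a result.

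The steepest rises in H358 were at 2 wide members that stood at low levels with DMSO. At chrX:56756663-56757055 on plus, 393 bases wide, the level was 2.23, 1.35 and 1.84 CPM with DMSO and 77.8, 96.6 and 68.8 with cisplatin, a log2 fold change of 5.47 ± 0.37 (SE, edgeR's quasi-likelihood test, adjusted p = 1.09e-28). In A549R it was 5.02, 3.98 and 4.71 with DMSO and 3.88, 4.52 and 2.64 with cisplatin, and in polysomes 3.37 and 1.86 against 1.97 and 2.53. The groups were apart in H358, which the choice of named rises and falls required, and overlapped in A549R and in polysomes. At chr6:27441149-27441572 on plus it was 2.36, 1.59 and 2.25 CPM with DMSO and 77.7, 99.8 and 80.5 with cisplatin in H358, a log2 fold change of 5.37 ± 0.37 (edgeR, adjusted p = 1.01e-28). In A549R that peak had 3.58, 3.83 and 2.82 CPM with DMSO and 2.79, 3.79 and 2.47 with cisplatin, which overlap.

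The other named rises were on the minus strand. At chr17:78122332-78122420 the level was 5.46, 4.29 and 9.21 CPM with DMSO and 149, 115 and 88.9 with cisplatin, a log2 fold change of 4.25 ± 0.33 (edgeR's quasi-likelihood test, adjusted p = 2.39e-24). In A549R this peak measured 6.31, 10.6 and 6.28 with DMSO and 21.2, 78.6 and 8.81 with cisplatin. Those groups overlapped, with a log2 fold change of 2.21 ± 0.75 that did not pass the test (edgeR, adjusted p = 0.266). At chr12:80342826-80342876 the level was 2.85, 3.92 and 3.48 with DMSO and 28.7, 76.2 and 51 with cisplatin, a log2 fold change of 3.91 ± 0.37 (edgeR, adjusted p = 3.9e-18).

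The 4 named falls in H358 were all on plus. At chr15:44057641-44057757 the level was 21.4, 18 and 13.7 CPM with DMSO and 2.62, 1.90 and 5.25 with cisplatin. At chr21:46398736-46399193 it was 25.3, 19 and 20.5 with DMSO and 4.59, 5.70 and 2.62 with cisplatin. At chr14:61275036-61275152 it was 17, 24.4 and 12.5 with DMSO and 4.10, 3.8 and 2.92 with cisplatin. None of these groups overlapped, which the choice of named falls required. At chr10:74089962-74090354 it was 17, 11.2 and 5.73 with DMSO and 3.44, 2.98 and 1.46 with cisplatin, again without overlap. In that order the log2 fold changes were -2.47, -2.31, -2.30 and -2.07 (edgeR's quasi-likelihood test, adjusted p = 3.01e-07, 3.63e-07, 9.56e-07 and 3.73e-05).

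The second comparison asked the same of A549R cytosol. The members' share of listed counts was 25.7%, 25.6% and 33.8% with DMSO and 25.8%, 24.2% and 28.7% with cisplatin. The groups overlapped, and DMSO replicate 3, the library with the fewest counts, was the highest. Means were 28.4% ± 4.72 and 26.2% ± 2.28 (SD, n = 3 each), a difference of -2.14 percentage points (two-sided exact permutation test, p = 0.7, smallest possible 0.1, adjusted p = 0.7). Without DMSO replicate 3 the difference was 0.58 points.

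Few members changed in A549R. Of 10484, 4 rose and 4 fell (edgeR's quasi-likelihood test, adjusted p under 0.05 over 43567 peaks), which is 0.0763% against 0.985% of all peaks in the fit and 1.27% of its other peaks. The risen share was 0.0382% against 0.555% of all and 0.719% of other peaks, and the fallen share 0.0382% against 0.429% and 0.553%. Of the 13948 other peaks of no short list in this fit, 4 rose (0.0287%) and 16 fell (0.115%). Of the 19135 short-listed peaks, 234 rose and 167 fell. A low share of calls was thus not particular to the members, and the difference between these sets was not tested. The median log2 fold change was 0.01 (10% to 90%, -0.32 to 0.38). Unadjusted p was under 0.05 for 529 members, 5.05% against 13.0% of all peaks. Same-numbered A549R libraries correlated at 0.24, 0.10 and 0.31, but DMSO replicate 2 correlated better with cisplatin replicate 1 (0.15). Pairing by number is thus not shown for every library. With the replicate number as a block 32 members rose and 28 fell, 0.572% changed against 4.56% of all peaks. Scaling to total counts gave 3 risen and 16 fallen (0.181% changed, against 1.73% of all peaks), with the median of all peaks shifted from 0.02 to -0.10. Scaling on peaks of at least 1 short list gave 3 and 15 (0.172% against 1.63%). DESeq2 called 4 risen and 14 fallen (0.172% against 1.64%). The number of changed members was 0 without DMSO replicate 1, 0 without cisplatin replicate 1, 1 without DMSO replicate 2 and 2 without cisplatin replicate 2. Without DMSO replicate 3 it was 46 (0.439% against 2.11%), and without cisplatin replicate 3 it was 12 (0.114% against 2.01%). The number was also 0 when all peaks whose mean count reached 5 were fitted.

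**Figure D5:**
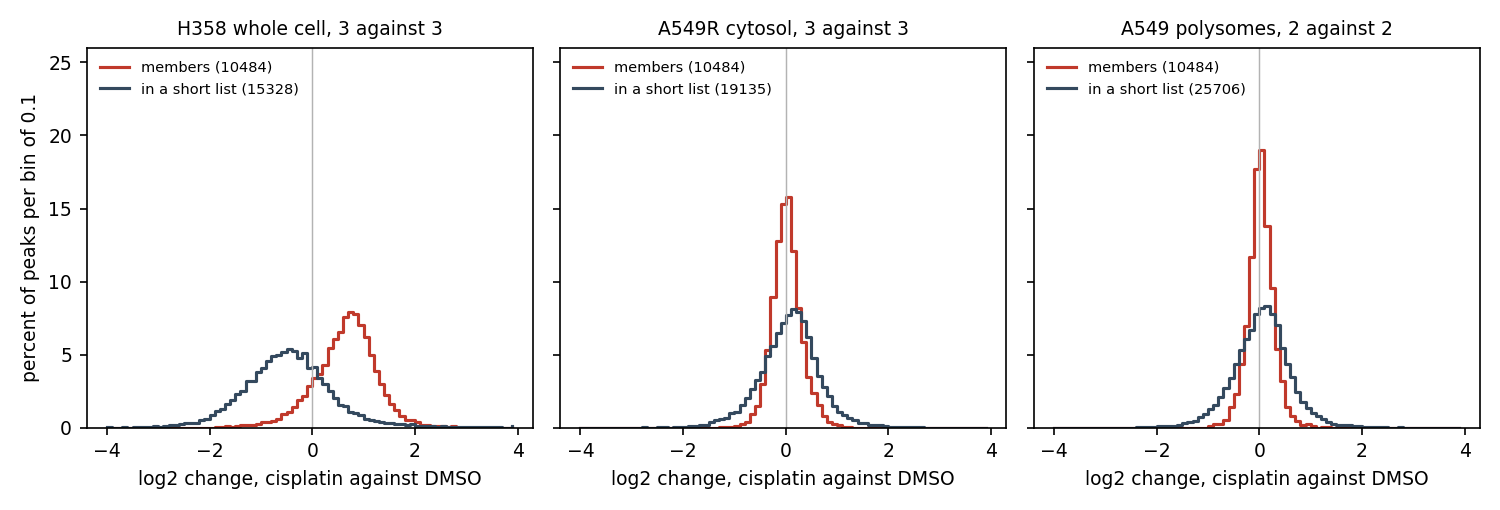
Percent of peaks per bin of 0.1 of the log2 fold change, cisplatin against DMSO, in H358, A549R and polysomes, for long-only peaks (red, members) and short-listed peaks of the same fit (blue). Members centre on 0.69 in H358, 0.01 in A549R and 0.02 in polysomes.

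The member with the largest called rise in A549R was chr21:28515436-28515846 on minus. Peaks named for a rise or fall in A549R or polysomes were also chosen without overlap in that comparison. It measured 29.7, 35.7 and 35.1 CPM with DMSO and 117, 124 and 88.4 with cisplatin, without overlap, a log2 fold change of 1.72 ± 0.21 (SE, edgeR's quasi-likelihood test, adjusted p = 0.00498). In H358 it stood higher, at 159, 149 and 244 with DMSO and 122, 162 and 166 with cisplatin, which overlap (edgeR, log2 fold change -0.30 ± 0.25, adjusted p = 0.344). The others that rose were chr6:42434890-42434948 on plus (log2 fold change 1.6), chr5:132354659-132354899 on minus (1.30) and chr22:40360391-40360916 on plus (1.00), with edgeR adjusted p = 0.0107, 0.044 and 0.0478. The chromosome 5 peak also rose in H358, from 8.19, 13.4 and 9.41 CPM to 16.1, 23.9 and 17.2 (edgeR, adjusted p = 0.0384).

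Of the 4 members that fell in A549R, 2 rose in H358. At chr6:28728510-28728828 on plus, A549R had 14.9, 20.4 and 5.65 CPM with DMSO and 2.48, 1.63 and 4.23 with cisplatin, and H358 had 3.23, 1.96 and 2.86 with DMSO and 8.03, 13.0 and 7.87 with cisplatin. Neither pair of groups overlapped. Its log2 fold changes were -2.33 ± 0.45 in A549R and 1.84 ± 0.41 in H358 (edgeR's quasi-likelihood test, adjusted p = 0.0373 and 0.000158). At chr8:47381296-47381435 on minus, A549R had 11.6, 14.5 and 8.79 with DMSO and 4.50, 4.88 and 5.11 with cisplatin, and H358 had 3.35, 3.43 and 4.30 against 11.5, 20.3 and 16.6. These groups did not overlap either. Its log2 fold changes were -1.29 ± 0.26 and 2.12 ± 0.39 (edgeR, adjusted p = 0.044 and 3.94e-06).

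The other 2 members that fell in A549R did so by less. At chr3:112414239-112414599 on minus, A549R fell from 29.5, 30.2 and 27.9 CPM to 16.6, 12.6 and 13.2 and H358 from 27.3, 32.4 and 29.3 to 13.1, 8.95 and 13.4, without overlap in either, with log2 fold changes of -1.04 and -1.32 (edgeR's quasi-likelihood test, adjusted p = 0.0423 and 0.000945). At chr1:5617793-5617863 on minus, A549R went from 115, 120 and 114 to 63.1, 60.3 and 62.0 (log2 fold change -0.91 ± 0.17, edgeR, adjusted p = 0.0317). That peak stood at 3.72, 5.76 and 3.68 CPM in H358 DMSO and at 381 and 173 in polysome DMSO.

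The third comparison asked the same of the heavy polysomes of A549. The members' share was 32.4% and 25.2% with DMSO and 32.5% and 25.7% with cisplatin. Libraries of the same number were closer than libraries of the same treatment. Means were 28.8% ± 5.07 and 29.1% ± 4.83 (SD, n = 2 each), a difference of 0.31 percentage points (two-sided exact permutation test, p = 0.667, smallest possible 0.333, adjusted p = 0.7). Of 10484 members, 1 rose and 0 fell (edgeR's quasi-likelihood test over 62088 peaks), which is 0.00954% changed against 0.306% of all peaks in the fit and 0.366% of its other peaks. Among all peaks 0.177% rose and 0.129% fell, and among the others 0.211% and 0.155%. Of the 25898 other peaks of no short list in this fit, 0 rose and 1 fell (0.00386%). Of the 25706 short-listed peaks, 109 rose and 79 fell. The low share of calls was thus not particular to the members here either. The median log2 fold change was 0.02 (10% to 90%, -0.29 to 0.33). Unadjusted, 66 members had a p under 0.05 (0.63%, against 5.84% of all peaks), and DESeq2 called 1 member. With the replicate number as a block 185 members rose and 115 fell, 2.86% changed against 9.85% of all peaks, but 2 pairs do not show that the numbers pair the libraries. The number of changed members was 7 without DMSO replicate 1, 0 without cisplatin replicate 1, 2 without DMSO replicate 2 and 5 without cisplatin replicate 2.

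The single member that rose in polysomes was again chr21:28515436-28515846. It measured 12.5 and 15 CPM with DMSO and 43.4 and 41.3 with cisplatin, without overlap, a log2 fold change of 1.61 ± 0.27 (SE, edgeR's quasi-likelihood test, adjusted p = 0.0258). It did not pass with scaling on short-listed peaks, with all peaks whose mean count reached 5, without DMSO replicate 1 or without cisplatin replicate 1 (edgeR, adjusted p = 0.0514, 0.198, 0.0531 and 0.0762), at log2 fold changes of 1.45 to 1.62. No member was called in the same direction in all 3 comparisons.

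The difference between the cisplatin changes in H358 and A549R was itself tested in 1 fit of all 16 libraries. The change was higher in H358 for 2054 members and lower for 94 (edgeR's quasi-likelihood test of the difference, adjusted p under 0.05 over 21643 peaks). That is 20.5% of members against 22.2% of all peaks in the fit and 23.8% of its other peaks. The higher share was 19.6% against 10.3% of all and 1.5% of other peaks, and the lower share 0.897% against 11.9% and 22.3%. The need for at least 5 counts in every long list limits the lower share of members too. The median difference was 0.72 log2 for members and -0.69 for the 11159 shared peaks. The count of 2148 became 1213 without H358 DMSO replicate 2, 891 without H358 cisplatin replicate 2, 1337 without A549R cisplatin replicate 1, 1379 without A549R cisplatin replicate 2 and 1214 without A549R DMSO replicate 3. It was 3513 with the replicate number as a block and 5362 with scaling on peaks of at least 1 short list. All peaks were not counted under these alternatives, so whether members moved apart from the rest is not shown. Between polysomes and A549R cytosol the difference was called for 0 members and for 0 of all peaks in the fit (edgeR). Unadjusted p was under 0.05 for 147 of the 10484 members and 342 of all 21643 peaks. H358 was measured in total cells and A549R in cytosol, so line and fraction cannot be told apart.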

How the data were processed

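Peak lists of 27 3′-seq libraries were used. Poly(A)+ RNA was fragmented, reverse transcribed with anchored oligo-dT and amplified by 16 cycles of PCR, and fragments of 150 to 300 bases were read from 1 end for 50 bases, per the labels' protocols. No molecular identifiers are named, so counts are reads, not molecules. The authors deposited, for each library, peaks with position, strand, number and raw read count, not normalized. Tools named in the submitters' processing notes, with no role, are bedtools 2.17.0, Bowtie2 2.2.5 and SAMtools 1.1. Neither the peak caller nor the filter behind long and short lists is given in the sources used here. These notes also name mm9, but the highest position on chromosome 1 is 249237867 and on the mitochondrial genome 16571, which fit human hg19, so positions were read as hg19 and counted from 1. No genome or annotation of that build was used here, so peaks are named by position, no sequence is shown and the labelled lines were not checked against marker genes.

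Lists with under 50% of their highest peak number were called short. Peaks were merged by strand with an overlap of at least 1 base, and a library's counts were summed per merged peak. The members and lists were chosen with earlier results of these data known. Cisplatin was tested against DMSO with edgeR 4.0.16 (quasi-likelihood, robust, trimmed mean of M-values scaling, R 4.3.3) over peaks listed in every library of a fit, with Benjamini-Hochberg adjustment and a threshold of 0.05, and the difference between samples as an interaction in a joint fit. CPM values of single libraries are scaled within each comparison, and median levels, chromosome levels and mean levels over groups are scaled over all 16 long-list libraries. Shares were compared by exact permutation over libraries (two-sided). The script was tested on simulated data. Same-numbered DMSO and cisplatin libraries of A549R correlated in their deviations (r = 0.24, 0.10 and 0.31 over 43567 peaks). DMSO replicate 2 correlated better with cisplatin replicate 1 (r = 0.15). The blocked count of A549R stands beside its result.

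Peaks named are, per comparison, the 4 largest rises and 4 largest falls among called members with at least 5 CPM in the higher group and no overlap, the 5 of highest level, those called alike in all 3 comparisons or oppositely in H358 and A549R, the narrowest and widest, and the 5 fullest 1 Mb windows. Alternatives were other scalings, DESeq2 1.42.0, count minimums, the block, other member rules and leaving out each replicate. Depth limits low members most, since their counts lie near the minimum of 5. Oxaliplatin, A549 cytosol and the polysome replicates 3 were not tested, since their lists are short.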

Additional observations from a re-analysis of the deposited data

Results flagged for a closer look

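The change with cisplatin differed between H358 total cells and A549R cytosol for 2148 members (edgeR's quasi-likelihood test of the difference, adjusted p under 0.05). The named members below passed the same test, and each value is the H358 change minus the A549R change on the log2 scale.

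The difference was 5.86 at chrX:56756663-56757055 and 5.66 at chr6:27441149-27441572. It was 3.15 at chr12:80342826-80342876. Members that rose in H358 and fell in A549R differed by 4.23 at chr6:28728510-28728828 and 3.48 at chr8:47381296-47381435.

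Among the members of highest level it was 1.39 at chrX:69342133-69342256, 1.41 at chr19:16869793-16869868, 0.91 at chr12:98851100-98851250 and 1.14 at chr5:157448450-157448526. It was lower in H358 at chr15:44057641-44057757 (-2.04), chr14:61275036-61275152 (-1.33) and chr10:74089962-74090354 (-2.04). The same held at chr21:28515436-28515846 (-1.93) and at the widest member, chr18:6462069-6463031 (-0.79). Line and RNA fraction cannot be told apart in these values.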

How the results depend on the processing

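In H358 the direction of the members' change held under every alternative run, while the number changed (3744) moved. It was 6855 with scaling on short-listed peaks (65.4% of members against 44.4% of all peaks). With all peaks whose mean count reached 5 it was 1143 (10.9% against 12.3%), and with no minimum 959 (9.15% against 8.96%). Among the 2694 members whose mean count reached 50 it was 1488 (55.2%). The 37.4% of all peaks is no like measure for that share, since it covers peaks of any count. Without 1 replicate it ran from 1599 (15.3% against 20.9%) to 3752 (35.8% against 36.8%). In A549R the 8 changed members became 19 with total counts (0.181% against 1.73% of all peaks) and 18 with scaling on short-listed peaks (0.172% against 1.63%). They became 18 with DESeq2 (0.172% against 1.64%) and 0 over all peaks whose mean count reached 5 (against 0.0238%). There were 42 with no minimum (0.401% against 1.36%) and 60 with the replicate block (0.572% against 4.56%). The joint fit gave 16 (0.153% against 1.67%), and members of 15 or 16 long lists 13 (0.0937% against 0.985%). Without 1 replicate there were 0 to 46, the highest at 0.439% against 2.11%. In polysomes the 1 changed member became 0 with scaling on short-listed peaks, 0 over all peaks whose mean count reached 5, 3 with no minimum, 300 with the replicate block (2.86%, against 9.85% of all peaks) and 0 to 7 without 1 replicate. Where 1 polysome library was left out, the lone library was assumed to vary like the other group. With no minimum the polysome share was 0.0286% of members against 0.79% of all peaks. The causes were not tested.

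The difference between H358 and A549R was called for 5362 members with scaling on short-listed peaks, 3513 with the replicate block and 891 to 2717 without 1 replicate. These counts cover members only, without the share over all peaks. The difference between polysomes and A549R cytosol stayed at 0 in all alternatives run. The share difference ran from 6.40 to 9.10 points in H358, from -3.54 to 0.58 in A549R and from -3.28 to 3.89 in polysomes without 1 replicate, and was -0.47 in polysomes over counts of peaks in all 16 long lists. The median width was 56.5 bases from each library's own peaks. The rule gave 10465 members when peaks up to 50 bases apart were merged and 14198 with 15 of 16 long lists. Same-numbered H358 libraries correlated at 0.31, -0.10 and 0.21, and crossed pairs of replicates 1 and 3 at -0.31 and -0.30. Replicates 1 and 3 thus correlated best with their own number, and replicate 2 did not. With the replicate number as a block 3636 members rose and 216 fell in H358, 36.7% changed against 39.8% of all peaks. Same-numbered polysome libraries correlated at 0.53, but 2 pairs are too few to show that the numbers pair them, and no label says so. Of 112 checks of named A549R changes, 43 no longer passed, and of 12 in polysomes, 4. All 140 in H358 passed, for 10 peaks: the named rises, the named falls and those called oppositely in A549R. Other H358 changes given above, such as that of the widest member, were not checked in this way.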
